A study of Drosophila melanogaster with 6 samples.

Results

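The genes described are those for the protein subunits of the fly mitochondrial ribosome, taken as every probe set that the array's platform annotation pairs with a single gene whose symbol begins with mRpL (large subunit) or mRpS (small subunit), together with tko and bonsai. A probe set is a group of short probes on the array that together report on a transcript, or on several related transcripts. The rule found 73 probe sets for 71 genes, out of 18769 fly probe sets for 11983 genes named singly. By symbol, 44 were of the large and 27 of the small subunit. Of 75 genes with such symbols in the RefSeq gene table, mRpL34, mRpL37, mRpL53 and mRpS10 had no probe set of their own and were not analysed here. The measurements came from S2, an established Drosophila line of embryonic origin that resembles blood cells (hemocytes), incubated for 5 days with double-stranded RNA, which leads to degradation of the matching mRNA. In 3 samples that RNA matched spotted-dick, now named pita, the gene of a DNA-binding protein with zinc fingers. In 3 control samples it matched GFP, a jellyfish gene with no fly counterpart. The labels name no further spotted-dick RNA and no rescue, so loss of the gene and other effects of the RNA cannot be told apart, and no label says whether replicates were separate cultures.

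The mitochondrial ribosome makes the few proteins encoded by mitochondrial DNA, all of them subunits of the respiratory chain and ATP synthase. Its proteins are encoded in the nucleus, made in the cytoplasm and imported, and they assemble with mitochondrially encoded ribosomal RNA. Many descend from bacterial ribosomal proteins and others are found only in mitochondria. In flies tko, the counterpart of bacterial S12 at the decoding centre, is known for a mutant with seizures and delayed development, and bonsai is the counterpart of bacterial S15.

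Spotted-dick was depleted as labelled. The deposited pita signal was 25.9, 46.6 and 28.7 in the spotted-dick RNAi arrays, against 335.9, 333.2 and 269.7 in the GFP RNAi arrays. Orc4, an origin recognition complex gene, had 2.7, 14.2 and 4.0 in the spotted-dick RNAi arrays, against 141.1, 146.0 and 100.9 in the GFP RNAi arrays. Of 7 hemocyte markers, all were above the lowest mean signal that was tested, with summed deposited signals of 2106 to 2341 in the spotted-dick RNAi arrays and 2232 to 3388 in the GFP RNAi arrays. The neuronal markers elav and brp also had signal, while nSyb did not pass the filter. The sum over these 3 markers was 112.7 to 130.5 in the spotted-dick RNAi arrays, against 143.8 to 193.6 in the GFP RNAi arrays. Among the hemocyte markers, the peroxidasin gene Pxn had a mean normalized signal of 71.8 in the spotted-dick RNAi arrays and 17.9 in the GFP RNAi arrays, and rose by 1.39 ± 0.18 (SE, n = 3 each, limma adjusted p = 0.000423). Pxn was singled out after its value was seen. Mean deposited signals of Hml, srp and crq were 459.8, 1113.6 and 512.8 in the spotted-dick RNAi arrays, against 578.5, 1342 and 785.4 in the GFP RNAi arrays. Those of eater and He were also lower, at 48.7 and 30.1 against 69.7 and 37. NimC1 was dim and higher, at 11.5 against 7.5, and Pxn had 64 against 19.5. The germline markers vas and bam passed the filter with a summed signal of 23.3 to 35.0 in the spotted-dick RNAi arrays, against 32.9 to 39.6 in the GFP RNAi arrays. Of 3 fat body markers only Lsp2 passed it, and their sum was 10.6 to 33.9 in the spotted-dick RNAi arrays, against 18.7 to 30.1 in the GFP RNAi arrays. None of the gut or muscle markers with a probe set passed the filter. Apart from the Pxn fit, these marker values are as deposited, and the arrays differed in brightness. The trimmed mean array signal was 125.4 to 138.8 in the spotted-dick RNAi arrays, against 125.8 to 189.6 in the GFP RNAi arrays. As deposited, the median log2 change over all tested probe sets was -0.2. Lower marker signals and dimmer arrays cannot be told apart in these values. The part of these marker differences in the results was not tested. In bulk RNA, fewer cells of a type and less RNA per cell cannot be told apart.

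The mitochondrial ribosomal protein transcripts were all readily measured. Their deposited signals ran from 78.2 to 1411.9 (linear array intensity), and all 73 probe sets passed the filter on dim probe sets. The arrays differed in overall brightness. The median deposited signal over the 73 probe sets was 335.1, 394.7 and 353.7 in spotted-dick RNAi replicates 1 to 3, against 559.8, 438.4 and 348.5 in GFP RNAi replicates 1 to 3. After quantile normalization, which gives every array the same distribution of values, these medians were 381.3, 404.4 and 400.3 in the spotted-dick RNAi arrays, against 417.8, 388.5 and 400.5 in the GFP RNAi arrays, and the groups overlapped. Unless stated otherwise, values below are normalized signals, and changes are spotted-dick minus GFP RNAi on the log2(signal + 16) scale.

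The family as a whole stayed close to the rest of the transcriptome, while a few members moved away from it. Of 71 genes, mRpL1 and mRpL24 fell and tko and mRpS22 rose at a limma Benjamini-Hochberg adjusted p under 0.05. These 4 are 5.63% of the family, against 2.03% of all 11261 tested probe sets (1.43% called lower and 0.604% called higher). Counted by gene, as the family was, 2.46% of 8265 tested genes were called (1.69% lower and 0.762% higher). The 2 falls were in the large subunit and the 2 rises in the small subunit. At an unadjusted limma p under 0.05 the family's share was lower, with 7 of 71 genes (9.86%). The shares were then 12.3% of all tested probe sets and 13.3% of all tested genes. The count of called members depended on the settings. With the deposited values mRpL1 alone was called, 1.41% of the family against 1.24% of all probe sets (1.15% called lower). mRpL1 was also the only call with median centring, without the intensity trend and without GFP RNAi replicate 3. Scaling to the hybridisation controls or to the trimmed mean kept all 4. The other members had changes from -0.21 to 0.22, and all 67 of them had a 95% confidence interval within 0.5 log2 units of 0, a bound of 1.41-fold that holds given this normalization. The median change over the 71 genes was 0.04, against 0.01 over all tested probe sets. With the deposited values these medians were -0.23 and -0.20, so the sign of the family's median flipped with that of the whole array. Of the 44 uncalled members with a positive change, 44 had a negative one with the deposited values.

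**Figure D1:**
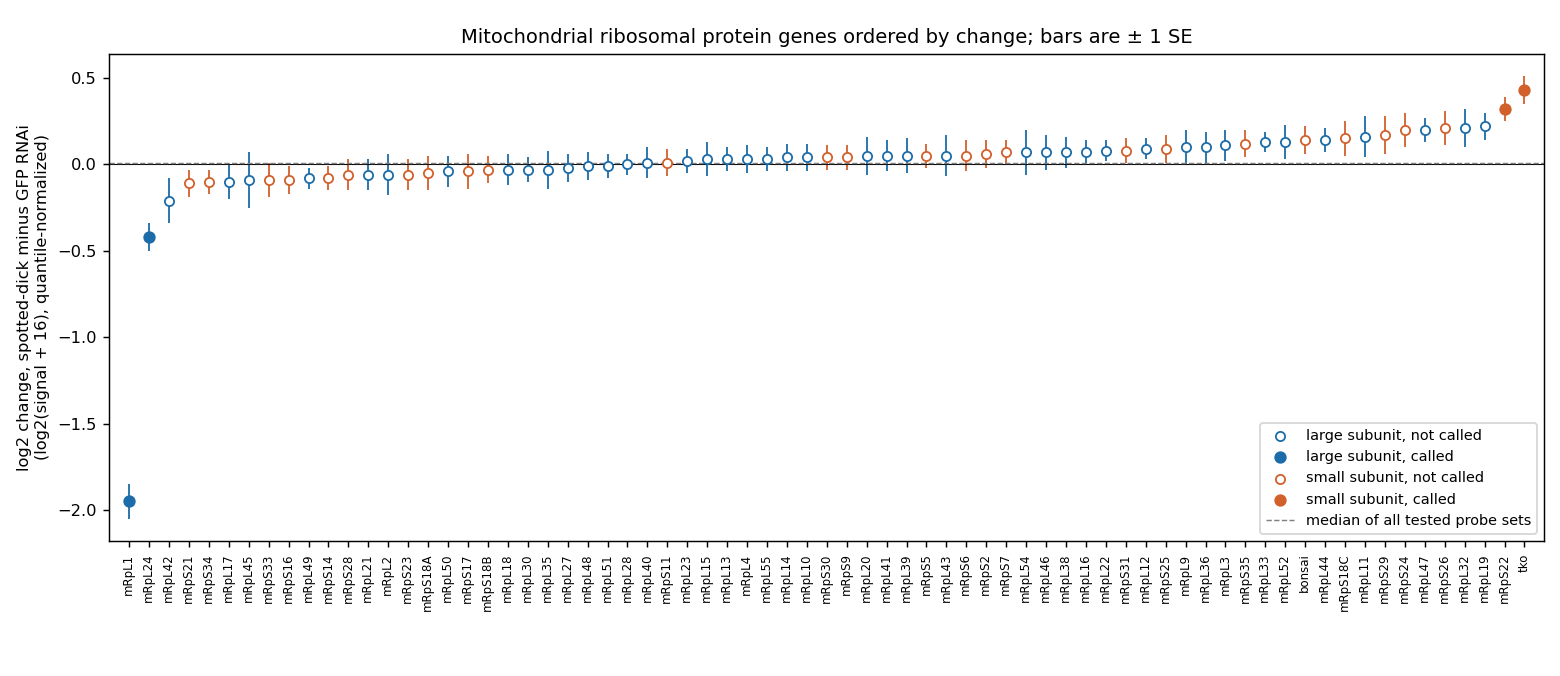
Change of each of the 71 genes (log2, spotted-dick minus GFP RNAi, quantile-normalized), ordered from the lowest to the highest, with bars of 1 SE; blue is the large and orange the small subunit, and filled points passed the test. mRpL1 stands alone at -1.95, mRpL24 follows at -0.42, tko and mRpS22 are the highest at 0.43 and 0.32, and the other 67 lie between -0.21 and 0.22.

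mRpL1 fell furthest of the family after spotted-dick RNAi. Its protein corresponds to bacterial L1, which forms the mobile stalk beside the site where tRNA leaves the ribosome. The deposited signal was 88.9, 78.2 and 87.8 in the spotted-dick RNAi arrays, against 559.8, 461.9 and 359.1 in the GFP RNAi arrays. Every spotted-dick RNAi array was thus far below every GFP RNAi array before any normalization. After normalization the signal was 100.9, 83.6 and 100.5 in the spotted-dick RNAi arrays, against 417.8, 408.7 and 411.0 in the GFP RNAi arrays, so the GFP RNAi values drew together and the gap remained. The mean of 95.0 ± 9.9 was 23.0% of the GFP RNAi mean of 412.5 ± 4.7 (SD, n = 3 each). mRpL1 fell by 1.95 ± 0.10 (SE, limma adjusted p = 4.83e-09), with a 95% interval of -2.16 to -1.75. Only 11 of the 11261 tested probe sets had a lower change. It was called in all 19 alternative settings, with changes from -2.22 to -1.58. Within the 2 fluidics stations on which the arrays were washed, its changes were -1.88 and -1.99. Both had to be negative because the groups did not overlap, so they add no support.

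mRpL24 was the other member that fell, by a much smaller amount. In bacteria its counterpart L24 is an early assembly protein of the large subunit that sits by the exit of the peptide tunnel. The deposited signal was 196.6, 236.2 and 220.2 in the spotted-dick RNAi arrays, against 446.7, 350.5 and 293.0 in the GFP RNAi arrays. The groups did not overlap, as also after normalization, when it was 224.2, 243.8 and 248.8 in the spotted-dick RNAi arrays, against 333.9, 311.0 and 333.2 in the GFP RNAi arrays. The spotted-dick RNAi mean was 73.3% of the GFP RNAi mean. mRpL24 fell by 0.42 ± 0.08 (SE, n = 3 each, limma adjusted p = 0.0123; 95% interval -0.60 to -0.24). The call held in 14 of 19 alternatives. It ended with the deposited values, where the change was larger (-0.68, limma adjusted p = 0.124), with median centring (0.104), without the intensity trend (0.126), and without GFP RNAi replicate 1 (adjusted p = 0.0694) or replicate 3 (0.0731).

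**Figure D2:**
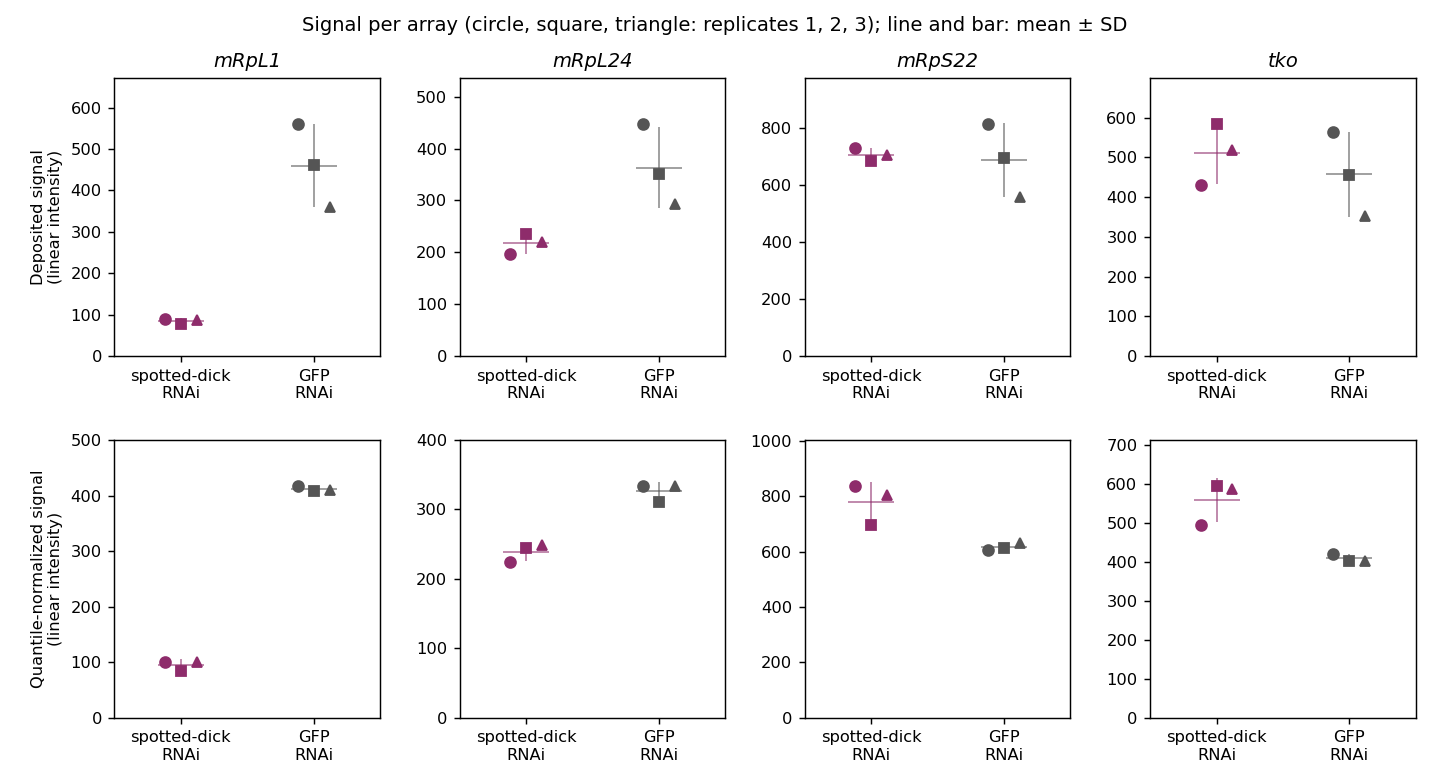
Signal on each array of the 4 genes that passed the test, as deposited (top) and after quantile normalization (bottom), in linear intensity from 0, with spotted-dick RNAi left of GFP RNAi; symbols are replicates 1 to 3 and lines are means ± SD. For mRpL1 and mRpL24 the groups are apart in both rows, whereas for mRpS22 and tko they overlap as deposited and are apart after normalization.

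Both members that rose belong to the small subunit, and both calls depended on the settings, the scaling of the arrays among them. For tko the deposited signal was 429.8, 582.8 and 519.2 in the spotted-dick RNAi arrays, against 563.2, 456.1 and 351.1 in the GFP RNAi arrays, so the groups overlapped. After normalization it was 495.3, 595.3 and 587.2 in the spotted-dick RNAi arrays, against 421.0, 403.3 and 403.5 in the GFP RNAi arrays, with no overlap. tko rose by 0.43 ± 0.08 (SE, n = 3 each, limma adjusted p = 0.00859; 95% interval 0.26 to 0.60), a mean 1.37 times the GFP RNAi mean. With the deposited values its change was 0.17 (adjusted p = 0.701). The call held in 13 of 19 alternatives, and also ended with median centring (adjusted p = 0.705), without the intensity trend (0.192) and without spotted-dick RNAi replicate 3 (0.0638), GFP RNAi replicate 2 (0.0585) or GFP RNAi replicate 3 (0.0536).

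mRpS22 encodes a small subunit protein with no bacterial counterpart, and mutations of the human gene MRPS22 cause mitochondrial disease. Its deposited signal was 728.2, 682.2 and 705.2 in the spotted-dick RNAi arrays, all within the GFP RNAi values of 811.7, 694.0 and 555.6. After normalization the signal was 837.6, 694.5 and 803.1 in the spotted-dick RNAi arrays, against 605.4, 613.4 and 632.1 in the GFP RNAi arrays, and the groups no longer overlapped. mRpS22 rose by 0.32 ± 0.07 (SE, n = 3 each, limma adjusted p = 0.0347; 95% interval 0.16 to 0.48), a mean 1.26 times the GFP RNAi mean. This was the least stable of the 4 calls, held in 8 of 19 alternatives. With the deposited values the change was 0.05 (adjusted p = 0.899). The call also ended with median centring (adjusted p = 0.837), without the filter (0.104), without the intensity trend (0.301) and with either block, and of the refits without 1 array only that without spotted-dick RNAi replicate 2 kept the call. Without the others the adjusted p was 0.128 and 0.165 (spotted-dick RNAi replicates 1 and 3) and 0.134, 0.155 and 0.0958 (GFP RNAi replicates 1, 2 and 3).

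**Figure D3:**
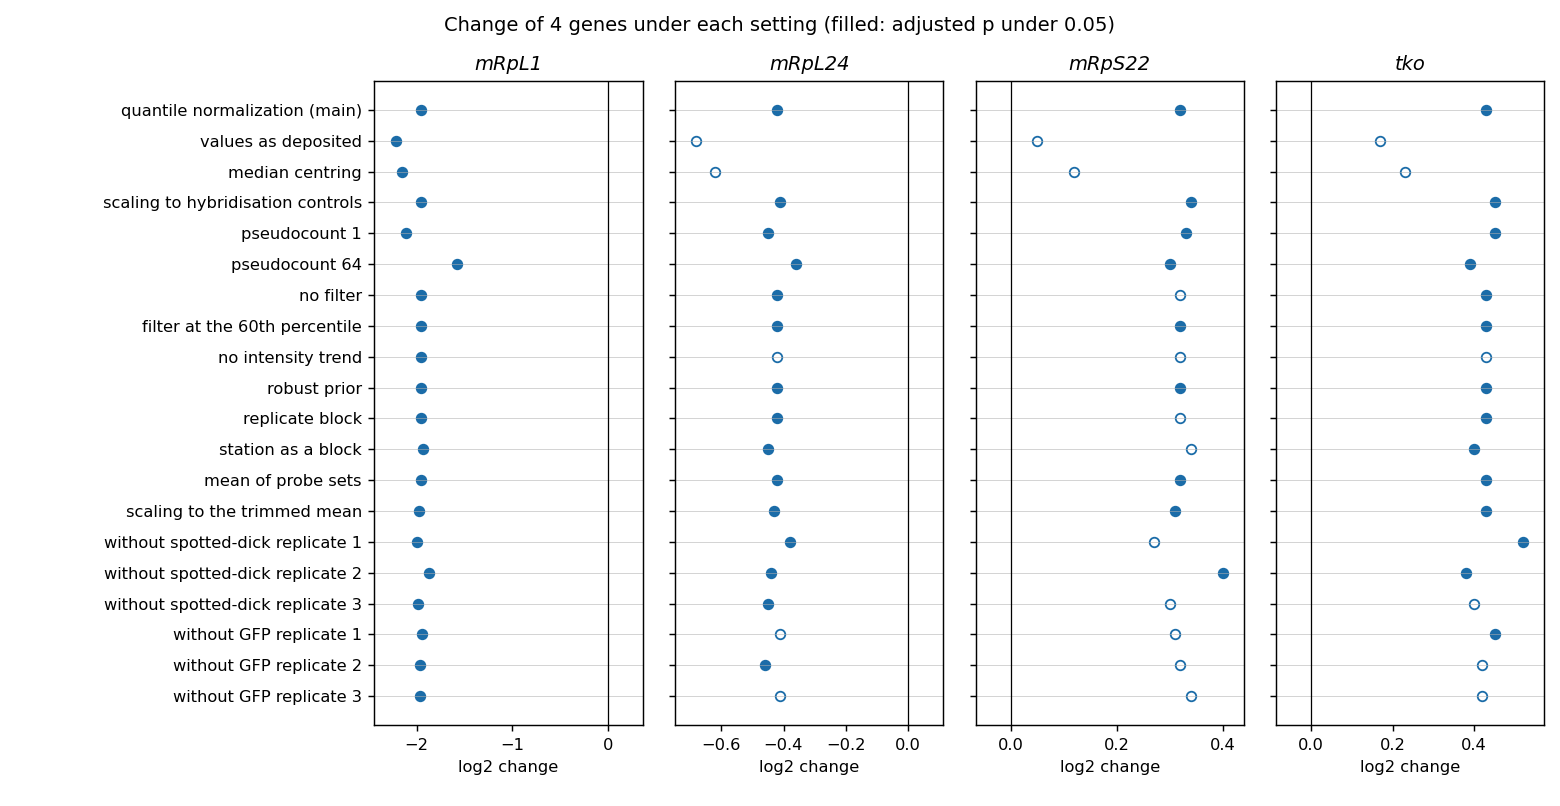
Log2 change of mRpL1, mRpL24, mRpS22 and tko (horizontal axes, a scale for each gene) under the main setting and 19 alternatives (rows), with filled points where the adjusted p was under 0.05. mRpL1 is filled throughout, mRpL24 in 14, tko in 13 and mRpS22 in 8 of the 19 alternatives, and no point lies across 0 from its main value.

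The remaining large subunit genes did not pass the test. mRpL12, whose bacterial counterpart L7/L12 forms the stalk that recruits translation factors, had 1025, 980.3 and 1055 in the spotted-dick RNAi arrays, against 946.7, 973.8 and 953.8 in the GFP RNAi arrays. These groups did not overlap, but the change was small, at 0.09 ± 0.06 (SE, limma adjusted p = 0.591; 95% interval -0.04 to 0.21). mRpL10 and mRpL11, which lie at the base of that stalk in bacteria, had changes of 0.04 and 0.16 (limma adjusted p = 0.894 and 0.658). mRpL2 and mRpL3, near the peptidyl transferase centre, had -0.06 and 0.11, and mRpL4 and mRpL22, which line the peptide tunnel, had 0.03 and 0.08. The highest large subunit value was that of mRpL19, an intersubunit bridge protein in bacteria, with 381.3, 388.7 and 364.2 in the spotted-dick RNAi arrays, against 349.8, 306.7 and 311.8 in the GFP RNAi arrays (change 0.22 ± 0.08, SE, limma adjusted p = 0.250). mRpL32 followed with 0.21 (adjusted p = 0.476). At the low end, mRpL42 had 303.2, 366.6 and 412.9 in the spotted-dick RNAi arrays, against 519.3, 388.5 and 358.7 in the GFP RNAi arrays. Its groups overlapped widely (change -0.21 ± 0.13, SE, adjusted p = 0.546). mRpL17 and mRpL45, the counterpart of a human protein at the tunnel exit, had -0.10 and -0.09. For mRpL45 GFP RNAi replicate 2 stood apart at 274.9, against 154.8 and 164.2 in the other GFP RNAi arrays and 168.8 to 196.3 in the spotted-dick RNAi arrays.

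Among the remaining small subunit genes none passed either. bonsai had 496.4, 569.5 and 592.8 in the spotted-dick RNAi arrays, against 523.8, 456.2 and 521.4 in the GFP RNAi arrays, with overlap (change 0.14 ± 0.08, SE, limma adjusted p = 0.550). mRpS29, known in humans as the GTP-binding protein DAP3, had 255.6, 295.2 and 338.1 in the spotted-dick RNAi arrays, against 241.1, 288.0 and 252.1 in the GFP RNAi arrays (change 0.17 ± 0.11, SE, adjusted p = 0.557). mRpS26 and mRpS24 had changes of 0.21 and 0.20 (adjusted p = 0.392 and 0.461). The lowest values in this subunit were -0.11 for mRpS21, -0.10 for mRpS34 and -0.09 for mRpS33 (adjusted p = 0.641, 0.580 and 0.783). For mRpS34 the groups did not overlap, at 528.8, 520.5 and 520.7 in the spotted-dick RNAi arrays, against 585.7, 564.2 and 542.8 in the GFP RNAi arrays. Its difference was smaller than the 0.3 log2 units within which 94.4% of the family and 85.2% of all tested probe sets lay.

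The medians of the subunit classes differed little. The median change was 0.03 over the 44 large subunit genes and 0.05 over the 27 small subunit genes. Split by number, the 42 genes of bacterial type (L1 to L36 and S1 to S21, tko and bonsai included) had a median of 0.03, and the 29 with higher numbers had 0.05. The splits by subunit and by number are by name only, and some with higher numbers, such as mRpL47 and mRpS24, also have bacterial relatives. In 12 of 71 genes the normalized values of the groups did not overlap, 9 higher and 3 lower. That is 16.9% of the family, against 17.8% of all tested probe sets (9.51% higher and 8.27% lower) and 18.9% of all tested genes. The middle 50% of the family's changes ran from -0.03 to 0.09, narrower than the -0.11 to 0.12 of all tested probe sets. The within-group SD moved with this: its median was 0.103 log2 units in the family and 0.157 over all tested probe sets, many of which are dimmer. Both genes with a pair of probe sets had neither called: mRpL47 had 0.20 and 0.23, and mRpS11 had 0.01 and -0.13.

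**Figure D4:**
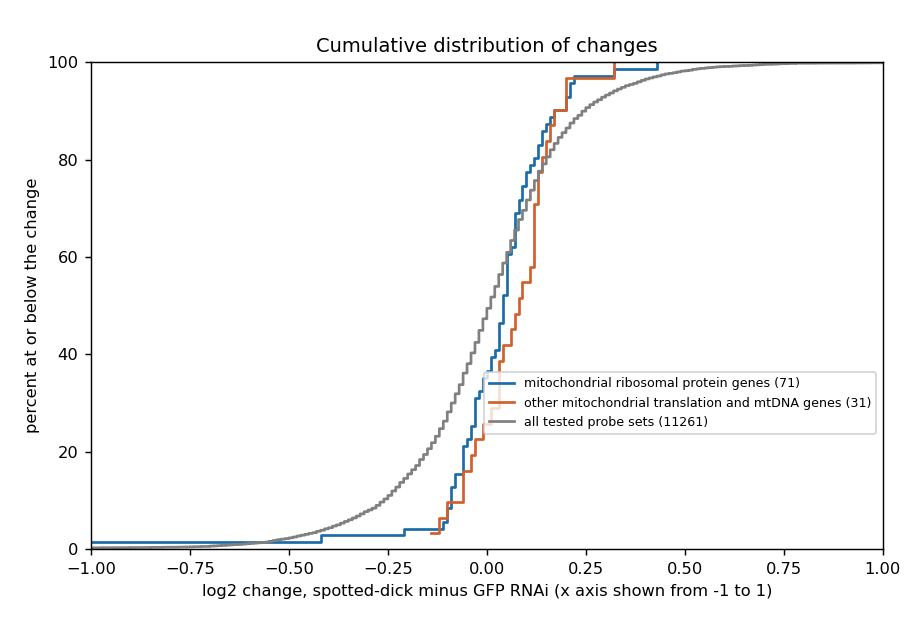
Cumulative share (percent) of log2 changes between -1 and 1 in the 71 mitochondrial ribosomal protein genes, 31 other mitochondrial translation and mitochondrial DNA genes and all 11261 tested probe sets. Both gene groups rise more steeply than the whole array, with medians of 0.04 and 0.08 against 0.01.

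Changes were also taken within each fluidics station. Station 1 held spotted-dick RNAi replicate 1 and GFP RNAi replicates 1 and 2, and station 2 held spotted-dick RNAi replicates 2 and 3 and GFP RNAi replicate 3, so each within-station change rests on a single array of either group. The family's median change was -0.04 in station 1 and 0.09 in station 2. In 35 of 71 genes the change had the same sign in both, a share of 49.3%, against 54.6% of all tested probe sets and 55.5% of all tested genes. The changes in stations 1 and 2 were -0.49 and -0.41 for mRpL24, 0.26 and 0.53 for tko and 0.45 and 0.24 for mRpS22. In all 4 called genes the normalized groups did not overlap. Their sign therefore had to be the same in both stations, which adds no support to the calls. mRpL42 had -0.54 and 0.11, mRpL11 had -0.16 and 0.47, and mRpL32 had 0.42 and 0.02. With the station as a block the call for mRpS22 ended (0.34, limma adjusted p = 0.0516) and the other 3 stayed.

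**Figure D5:**
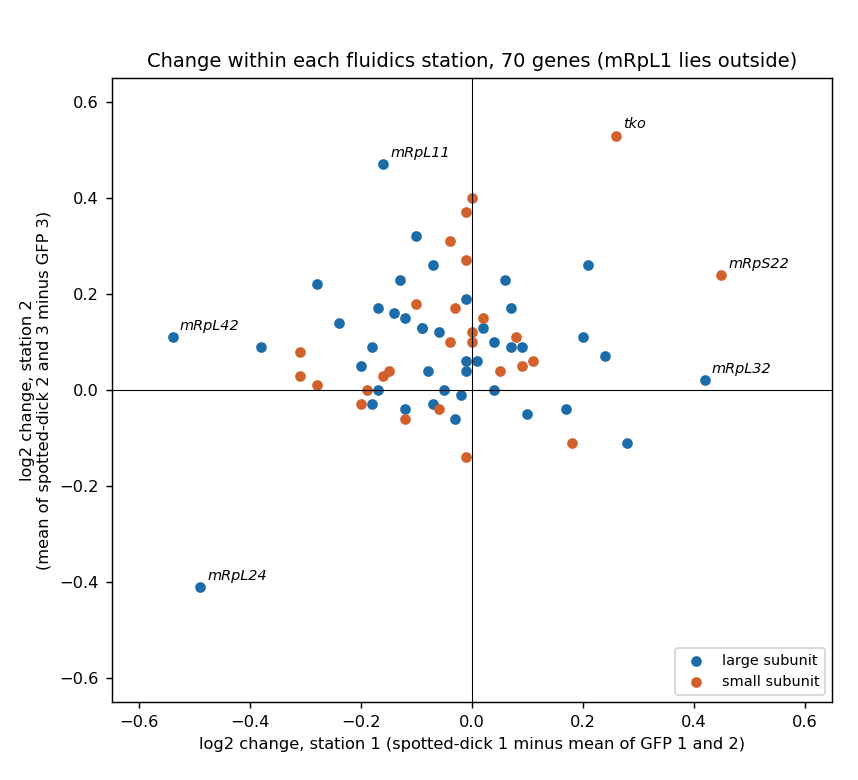
Log2 change within station 1 (horizontal) and station 2 (vertical) for 70 genes, blue for the large and orange for the small subunit. mRpL24, tko and mRpS22 lie away from 0 on both axes, and most genes lie around 0 with no common sign. mRpL1, at -1.88 and -1.99, is outside the plotted range. The normalized groups of the called genes did not overlap, so their shared sign was fixed in advance and adds no support.

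Other nuclear genes of mitochondrial translation and of mitochondrial DNA upkeep and transcription were set beside the family. Of 36 listed genes, 31 had a probe set and were tested, and none passed in limma with the main setting or any of the alternatives, against 2.03% of all tested probe sets called in the main setting. At an unadjusted limma p under 0.05 there were 3 of 31 (9.68%), all with higher values. Of all 11261 tested probe sets there were 1381 (12.3%), with 685 of them higher, and of all tested genes 13.3%. mEFTu1, which encodes the elongation factor that brings tRNA to the mitochondrial ribosome, had a change of 0.20 ± 0.06 (SE, limma adjusted p = 0.118). mtDNA-helicase, which unwinds mitochondrial DNA for replication, had 0.32 ± 0.10 (adjusted p = 0.187), and bsf, an RNA-binding pentatricopeptide repeat gene, had 0.17 ± 0.07 (adjusted p = 0.303). For all 3 the groups overlapped as deposited, and mEFTu1 and bsf then had changes of -0.05 and -0.08. The list's median change was 0.08, with 0.07 over 13 mitochondrial aminoacyl-tRNA synthetases, 0.08 over 7 translation factors and 0.09 over 11 mitochondrial DNA and transcription genes. TFAM, the protein that packages mitochondrial DNA, had 0.01, and PolrMT, the mitochondrial RNA polymerase, had 0.12.

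The protein-coding genes next to the called members in the RefSeq annotation (Release 6) did not pass. Non-coding genes were left out of the order. mRpL1 has the neighbours nac, whose annotated span overlaps its own, and CG9626. nac averaged 182.9 in the spotted-dick RNAi arrays and 188.3 in the GFP RNAi arrays, a change of -0.04 ± 0.10 (SE, n = 3 each, limma adjusted p = 0.913), while CG9626 had 0.26 (adjusted p = 0.482). betaggt-I next to mRpL24 had 0.04 (adjusted p = 0.890), and synr, which overlaps mRpL24, was too dim to be tested. Beside mRpS22, Boh1, which overlaps it, had 0.00 and CG5003 had 0.12 (adjusted p = 0.994 and 0.720). Beside tko, gt had 0.14 and boi 0.13 (adjusted p = 0.839 and 0.798). No 2 of the 71 genes are immediate neighbours of each other among the protein-coding genes of that annotation.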

How the data were processed

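Total RNA of 3 spotted-dick RNAi and 3 GFP RNAi samples was hybridised to Affymetrix Drosophila_2 arrays, per the file headers. The authors deposited a linear intensity for each probe set on each array. How they corrected background, summarised probes and scaled arrays is not given in the sources used here. Other deposited values used were the fluidics stations, per the file headers. The trimmed mean signal differed 1.51 times between arrays, so log2(signal + 16) was quantile-normalized over 18769 fly probe sets (125 controls left out). The dimmest were dropped (means under the 40th percentile, a signal of 7.86), which left 11261. Groups, taken from titles, were compared with limma 3.58.1 in R 4.3.3 (lmFit, eBayes with an intensity trend), with calls at an adjusted p under 0.05 (Benjamini-Hochberg over all tested probe sets). The p-values measure the spread between these samples, which may be technical. The number of arrays limits the precision.

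Genes came from the platform annotation: 13647 probe sets had 1 gene, 402 several and 4720 none. Of those with 1 gene, 13544 matched the RefSeq table of Release 6, used for names and neighbours. The brightest probe set stood for a gene with several. mRpL53 and mRpS10 share probe sets with other genes. The members and lists were chosen with earlier results of these data known. Named genes were pita, Orc4, all called members, the 8 largest rises and falls, tko, bonsai, mRpL12, mRpS29, the 3 smallest p-values of the mitochondrial list and neighbours of called members. Members named for their place in the ribosome, those named within stations, TFAM, PolrMT and both genes with a pair of probe sets were added after values were seen.

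Samples were not paired by replicate number in the main fit, and a fit with that number as a block was among the alternatives. Simulated data with the brightness of these arrays (18769 probe sets, 10 draws, 200 changed) were run through the same fit: 75.3% of changes of 1 and 86.7% of changes of 2 on the log2 scale were called, and 6.34% of calls were of unchanged probe sets, against 14.6% without normalization. Brightness was simulated as purely technical, rises and falls were equally many, and the noise came from the normalized fit. These settings favour normalization, so the figures cannot show that it suits the real arrays. Changes smaller than 1 were not simulated. Alternatives were other scalings, pseudocounts, filters, limma priors, blocks, the mean of probe sets and leaving out each array. Scaling to the trimmed mean was added after seeing the data. Plots used matplotlib 3.10.9 (Python 3.11.15).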

Additional observations from a re-analysis of the deposited data

How the results depend on the processing

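With the main setting 4 family members were called, and the count was 1 with the deposited values, with median centring and without the intensity trend, each time mRpL1, and from 1 to 4 with 1 array left out (1 without GFP RNAi replicate 3; 2 without GFP RNAi replicate 1, GFP RNAi replicate 2 or spotted-dick RNAi replicate 3). Over all probe sets, 229 were called (68 higher, 161 lower), against 140 as deposited (11 higher, 129 lower), 167 with median centring (16 higher, 151 lower), 126 without the filter, 53 without the trend, and 115 to 249 with 1 array left out (115 without GFP RNAi replicate 2, 142 without spotted-dick RNAi replicate 3 and 145 without GFP RNAi replicate 3). The family's median change was -0.23 as deposited and -0.16 with median centring, where all tested probe sets had -0.20 and -0.14. Of the 44 uncalled members with a positive change in the main setting, 44 were negative as deposited and 39 with median centring, while 0 of the 23 uncalled members with a negative change turned, so the sign of a small positive change depended on the scaling. Among genes named singly, the sign turned as deposited for mRpL19 (-0.03), mRpL32, mRpS26 and mRpL47 (each -0.05), mRpS24 (-0.06), mRpS29 (-0.09), mRpL11 (-0.10), bonsai (-0.13), mRpL3 (-0.15), mRpL12 (-0.17), mRpL22 (-0.18), mRpL4 and mRpL10 (both -0.23), mRpS11 (-0.25), mEFTu1 (-0.05), bsf (-0.08), PolrMT (-0.13) and TFAM (-0.25), and for the neighbouring genes boi (-0.13), CG5003 (-0.14), betaggt-I (-0.22) and Boh1 (-0.25). With median centring it turned for mRpS29 (-0.03), mRpL11 (-0.03), bonsai (-0.07), mRpL3 (-0.08), mRpL12 (-0.11), mRpL22 (-0.11), mRpL10 (-0.16), mRpL4 (-0.17), mRpS11 (-0.19), bsf (-0.02), PolrMT (-0.06), TFAM (-0.19), boi (-0.06), CG5003 (-0.08), betaggt-I (-0.15) and Boh1 (-0.19). With the mean of probe sets mRpS11 had -0.06, with scaling to the trimmed mean Boh1 had -0.02, and with the station as a block mRpL2 had 0.03, and TFAM and Boh1 -0.01. With 1 array left out, changes whose sign turned ranged from -0.06 to 0.05 (mRpS11), -0.03 to 0.11 (mRpL4), -0.01 to 0.08 (mRpL10), -0.18 to 0.07 (mRpL2), -0.04 to 0.07 (TFAM), -0.04 to 0.05 (Boh1), -0.09 to 0.01 (nac) and -0.02 to 0.08 (betaggt-I), and from -0.21 to 0.03 for mRpL17 and -0.21 to 0.02 for mRpS33 (both positive without spotted-dick RNAi replicate 1) and -0.23 to 0.15 for mRpL45 (positive without GFP RNAi replicate 2). The cause was not tested. As deposited, limma took the spread from the intensity trend alone, so those p-values leave out a probe set's own spread. The same limit may hold with median centring. There the limma adjusted p was 1.31e-40 for pita and 1.49e-24 for mRpL1, against 6.96e-08 and 4.83e-09 in the main setting. With the replicate block, for which same-numbered deviations correlated at -0.06, -0.03 and 0.05, 3 members and 199 probe sets were called, and the call for mRpS22 ended (0.32, adjusted p = 0.0545). Scaling to the hybridisation controls, either pseudocount, the filter at the 60th percentile, the robust prior, the mean of probe sets and scaling to the trimmed mean gave the same 4 calls.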
